A study of Schmidtea mediterranea with 40 samples.

Results

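The transcripts described are 6 of the 35262 in the table, namely the macrophage-expressed gene 1 transcripts MPEG1-like-1, MPEG1-like-2 and MPEG1-like-3 (in this order SMED30000139, SMED30034696 and SMED30015696), the cathepsin L transcript CTSL-like (SMED30023322) and the lysosomal alpha-glucosidase transcripts SMED30028442 and SMED30008977, both called LYAG-like. They were chosen by name, and all 6 passed the filter on low values. The study had picked each as a marker of the temporary embryonic pharynx or of the embryonic gut from enrichment at embryonic stages in these same libraries. Their levels from yolk to hatching are therefore given as a description, with no test.

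MPEG1 proteins (perforin-2 in vertebrates) are pore-forming proteins of phagocytes, where they act in the phagosome on engulfed microbes. Cathepsin L is a cysteine protease of the lysosome, and lysosomal alpha-glucosidase releases glucose from glycogen there. A planarian embryo lives on the yolk cells in its capsule, which a temporary pharynx pumps into a primitive gut for phagocytic cells to digest.

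PolyA RNA was sequenced from 40 samples of the planarian Schmidtea mediterranea, 4 in each of 10 groups. Yolk (Y) was taken from capsules without visible embryos at 8 days after deposition. Single embryos of the sexual biotype represent the stages S2, S3, S4, S5, S6, S7 and S8 at 2, 3, 4, 6, 9, 10 and 14 days, S8 being hatchlings. Adults were intact animals of the asexual clonal strain CIW-4 (C4) and virgin, sexually mature animals (SX). The labels give no transgene, knockdown or treatment for any group. C4 adults stand for 1 clone, whereas the embryos came from outbred cohorts.

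Between 5732627 and 17479851 reads per library fell on transcripts. Values are RPKM, reads scaled to transcript length and library size, with the library size multiplied by a TMM factor that ranged from 0.203 in yolk to 2.14 in S8. For a transcript of 1 kb, 1 read was worth a median of 0.360 RPKM in Y and 0.0376 RPKM in S8, so low values in yolk rest on few reads. Of 60 changes of the members' group means between neighbouring groups, S8 and adults, 58 kept their direction when libraries were scaled by total reads alone. The exceptions were CTSL-like from S3 to S4 and LYAG-like SMED30028442 from S2 to S3, where the log2 ratio of the means went from 0.10 to -0.01 and from 0.22 to -0.03. These are whole embryos and animals, so fewer cells of a type and less RNA per cell cannot be told apart.

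The MPEG1-like transcripts were distinct sequences. A stretch of the cloned insert of MPEG1-like-1 (bases 176 to 399) could be laid without gaps against the first 224 bases of that of MPEG1-like-2, of which 154 (68.8%) were identical. The stretches are shown because the levels of these transcripts are compared below, and capitals mark the bases that differ.
MPEG1-like-1: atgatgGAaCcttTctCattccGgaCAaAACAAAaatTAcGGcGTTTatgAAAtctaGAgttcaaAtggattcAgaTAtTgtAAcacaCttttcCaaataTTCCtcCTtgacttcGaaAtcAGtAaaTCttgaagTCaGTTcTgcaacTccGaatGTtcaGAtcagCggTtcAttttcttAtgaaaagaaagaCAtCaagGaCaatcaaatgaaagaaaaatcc
MPEG1-like-2: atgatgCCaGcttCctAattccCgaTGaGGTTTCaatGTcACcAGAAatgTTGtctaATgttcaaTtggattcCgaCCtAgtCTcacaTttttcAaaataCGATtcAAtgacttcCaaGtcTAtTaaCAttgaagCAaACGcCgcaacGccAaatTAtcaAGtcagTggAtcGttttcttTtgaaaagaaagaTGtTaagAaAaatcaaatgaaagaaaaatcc
Each window of 50 bases, the length of a read, held between 6 and 25 differing bases, more than the 2 mismatches allowed when reads were mapped. MPEG1-like-3 was laid against another part of the MPEG1-like-2 insert, bases 267 to 397, and not against MPEG1-like-1, so the 2 identities cannot be ranked. Over 131 bases shared with MPEG1-like-2, 77 (58.8%) were identical, and the capitals again mark the differences.
MPEG1-like-2: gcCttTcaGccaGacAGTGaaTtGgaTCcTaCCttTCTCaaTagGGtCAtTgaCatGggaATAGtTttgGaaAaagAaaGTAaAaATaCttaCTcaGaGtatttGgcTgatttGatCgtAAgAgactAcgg
MPEG1-like-3: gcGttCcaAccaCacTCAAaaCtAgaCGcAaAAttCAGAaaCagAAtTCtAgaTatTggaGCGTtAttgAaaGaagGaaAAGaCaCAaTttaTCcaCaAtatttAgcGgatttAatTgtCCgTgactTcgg
The CTSL-like insert held the codons for cysteine, glycine, serine and cysteine, in capitals below, the last of which is the catalytic cysteine in this protease family, in frame with the first ATG of the insert.
CTSL-like: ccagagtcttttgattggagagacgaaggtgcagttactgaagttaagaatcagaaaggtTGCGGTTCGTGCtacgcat
Both LYAG-like transcripts were cloned as 1 probe, whose first 120 bases are given next. The transcripts were of equal length, 2946 bases, and a read could match several transcripts equally well, so the split of reads between them is uncertain.
LYAG-like: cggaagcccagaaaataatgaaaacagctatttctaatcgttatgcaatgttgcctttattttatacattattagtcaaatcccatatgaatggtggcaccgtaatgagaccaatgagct

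MPEG1-like-1 and MPEG1-like-2 were transcripts of the earliest embryos, near absent from yolk, high from S2 to S4 and almost gone by S5. MPEG1-like-1 stood at 27.8, 78.6, 39.3 and 4.51 RPKM in the S2 libraries and at 56.8, 93.3, 23.3 and 15.5 RPKM in S3. In S4 its values were 13.0, 14.8, 12.6 and 24.0 RPKM, and in S5 only 0.678, 0.613, 0.293 and 0.813 RPKM. The S4 mean of 16.1 ± 5.37 RPKM (SD, n = 4) was 26.9 times the S5 mean of 0.599 ± 0.220 RPKM, with no overlap between the libraries. S2 and S3 overlapped widely, with means of 37.5 ± 30.9 and 47.2 ± 35.6 RPKM.

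MPEG1-like-2 followed the same course, with a wider gap between S4 and S5. Its S2 values were 19.6, 55.1, 36.5 and 2.11 RPKM and its S3 values 39.4, 72.4, 18.9 and 6.89 RPKM. In S4 they were 4.32, 4.39, 7.18 and 7.91 RPKM, a mean of 5.95 ± 1.87, which was 68.5 times the S5 mean of 0.0868 ± 0.105 RPKM. By S5 it was counted on 6 reads in 4 libraries together. From S6 on, each group held 2 to 8 reads of it in all, against 1143 reads in S3. MPEG1-like-1 lingered slightly longer, with 35, 21 and 37 reads in S6, S7 and S8 and 3 and 4 reads in C4 and SX. In yolk the group held 6 reads of MPEG1-like-1 and 1 of MPEG1-like-2.

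The share of MPEG1-like-2 relative to MPEG1-like-1, a measure the choice of members did not use, had a lower mean in S4 than in S3, a difference that did not pass the test. The log2 ratio, with 0.1 RPKM added to both, averaged -0.55 ± 0.39 in S2, -0.59 ± 0.39 in S3 and -1.42 ± 0.42 in S4 (SD, n = 4 each). The difference of S4 from S3 was -0.83 (standard error 0.29), with an exact two-sided permutation p of 0.0571 and an adjusted p of 0.114 over the 12 ratio comparisons made. S3 replicate 4 had the ratio -1.16, inside the S4 range of -1.73 to -0.80. The difference of S3 from S2 was -0.04 (standard error 0.28, exact permutation p = 0.857, adjusted p = 0.857). For S5 the ratio rested on 6 reads and was -1.99 ± 0.90, with an adjusted p of 0.471 against S4 in the exact permutation test.

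**Figure D1:**
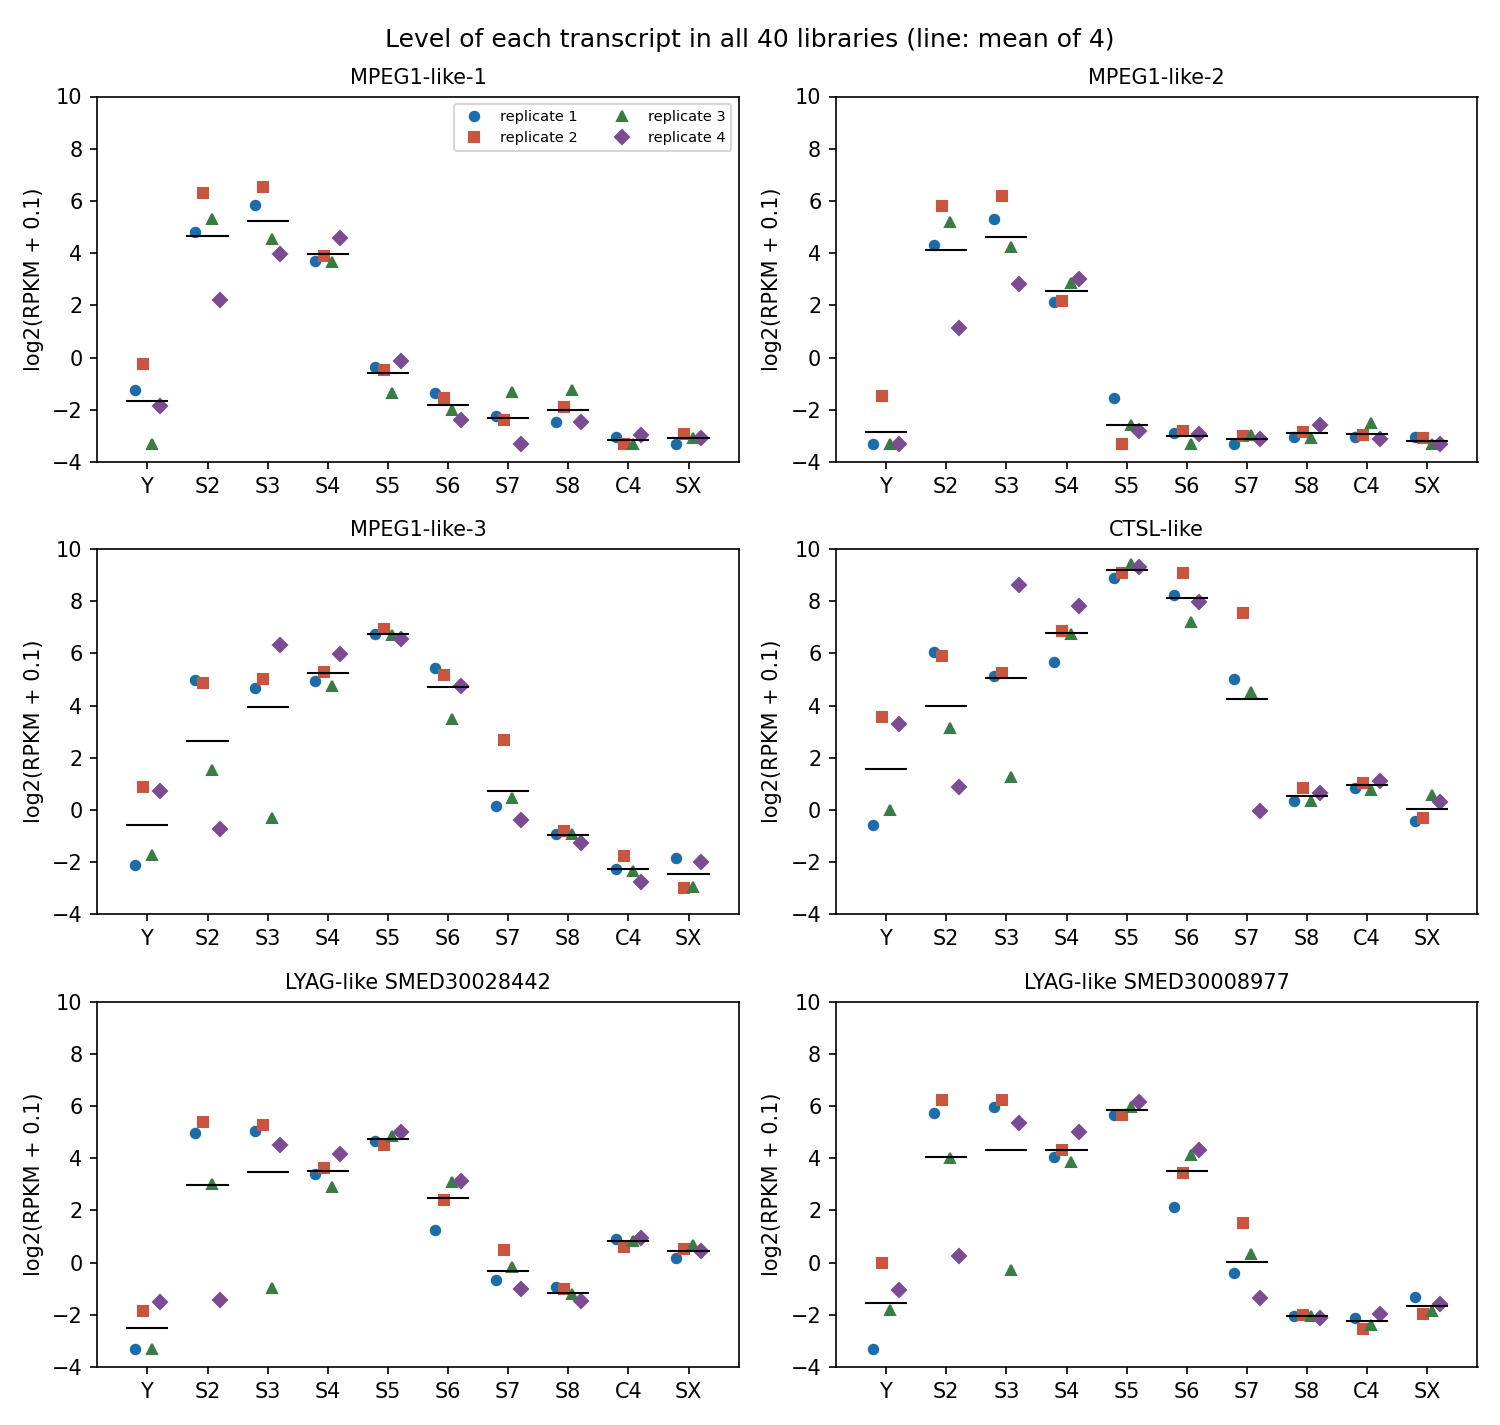
Level of each of the 6 transcripts as log2(RPKM + 0.1) in all 40 libraries, by group on the x axis, with a symbol for each replicate and a line at the mean of 4. MPEG1-like-1 and MPEG1-like-2 are high from S2 to S4, with highest group means of 47.2 and 34.4 RPKM in S3, whereas the other 4 transcripts have their highest group mean over all 4 libraries in S5.

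MPEG1-like-3 differed from its namesakes in both timing and height. It was highest in S5, at 107, 121, 103 and 94.2 RPKM, which all lay above every library of every other group. Its S4 values were 30.9, 39.2, 26.7 and 63.5 RPKM, and the S5 mean of 106 ± 11.05 RPKM was 2.65 times the S4 mean of 40.1 ± 16.4 (SD, n = 4 each). It was at 43.7, 35.5, 11.2 and 27.1 RPKM in S6, at 1.02, 6.33, 1.26 and 0.677 RPKM in S7 and at 0.412 ± 0.0677 RPKM in S8. Neighbouring stages from S4 to S8 did not overlap. In S2 and S3 it was spread widely, from 0.498 to 31.4 RPKM and from 0.716 to 79.7 RPKM.

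CTSL-like reached the highest group mean of the 6 transcripts per unit of length, in S5, although in S2 its mean of 34.1 RPKM was below that of MPEG1-like-1. The S5 libraries held 473, 543, 683 and 638 RPKM, a mean of 585 ± 94.2, and the S6 libraries 304, 545, 149 and 248 RPKM, a mean of 312 ± 169 (SD, n = 4 each). S5 and S6 overlapped through S6 replicate 2, while S4, at 51.3, 116, 108 and 224 RPKM, lay wholly below S5. In S7 the embryos split widely, with 32.7, 189, 22.8 and 0.878 RPKM, and replicate 4 was already at the level of the S8 libraries, 1.18, 1.69, 1.16 and 1.49 RPKM. MPEG1-like-3 was also highest in S7 replicate 2 and lowest in replicate 4. The S5 mean was 425 times the S8 mean for CTSL-like and 258 times for MPEG1-like-3.

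The LYAG-like transcripts had high means in S2 and S3 and again in S5, with a lower mean in S4 between them. SMED30008977 stood at 53.2, 74.0, 16.1 and 1.08 RPKM in S2, at 62.2, 74.1, 0.728 and 40.0 RPKM in S3, and at 16.2, 19.8, 14.3 and 31.7 RPKM in S4. In S5 it was at 49.8, 49.8, 62.9 and 71.2 RPKM. SMED30028442 ran in parallel at a lower level, with 31.4, 41.8, 7.88 and 0.270 RPKM in S2, 32.8, 38.7, 0.405 and 22.5 RPKM in S3, 10.3, 12.1, 7.27 and 17.8 RPKM in S4, and 24.9, 22.9, 28.4 and 31.9 RPKM in S5. S5 lay above S4 in every library for both, by 2.85 times for the mean of SMED30008977 and 2.27 times for that of SMED30028442, whereas S3 and S4 overlapped. The means were 12.9 ± 6.85 and 6.07 ± 2.97 RPKM in S6 and 1.22 ± 1.10 and 0.751 ± 0.387 RPKM in S7 (SD, n = 4 each).

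From S8 on SMED30028442 had the higher mean of the pair. SMED30008977 was at 0.144, 0.148, 0.144 and 0.126 RPKM in S8, a mean of 0.141 ± 0.00987, and at 0.112 ± 0.0386 in C4. In SX it was at 0.300, 0.157, 0.173 and 0.236 RPKM, a mean of 0.216 ± 0.0651 that was 1.54 times the S8 mean, with no overlap. SMED30028442 was at 0.418, 0.391, 0.337 and 0.264 RPKM in S8 but at 1.79, 1.39, 1.68 and 1.81 RPKM in C4 and 1.02, 1.35, 1.48 and 1.25 RPKM in SX, so that both adult groups lay above every S8 library. It was the member with the highest level in adults relative to embryos, at 6.17% of its S5 mean in C4. The higher adult mean of the other 5 members was at most 0.370% of their embryonic maximum.

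The ratio of the pair within a library, which the choice of members did not use, favoured SMED30008977 up to S6 and SMED30028442 from S8 on. Per length, SMED30028442 had 0.563, 0.540, 0.574, 0.458 and 0.465 of the reads of SMED30008977 in S2, S3, S4, S5 and S6, pooled over 4 libraries. The same value for S7 was 0.638 and for S8 2.48, while the adults had 14.5 (C4) and 6.00 (SX). The later values rest on few reads of SMED30008977, 44 in S8, 35 in C4 and 66 in SX. The log2 ratio with 0.1 RPKM added to both averaged -1.04 ± 0.11 in S6, -0.36 ± 0.58 in S7 and 0.90 ± 0.17 in S8 (SD, n = 4 each). Adults averaged 3.07 ± 0.14 (C4) and 2.13 ± 0.49 (SX).

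Of the 9 comparisons of this ratio, 5 had groups without overlap. They were S8 against S7 (difference 1.26, standard error 0.30), C4 against S8 (2.17, standard error 0.11), SX against S8 (1.23, standard error 0.26), SX against C4 (-0.94, standard error 0.25) and S5 against S4 (-0.32, standard error 0.08). Each had an exact two-sided permutation p of 0.0286, the smallest that 4 against 4 samples allow, and an adjusted p of 0.0686 over the 12 ratio comparisons, so none passed 0.05. S7 against S6 differed by 0.68 (standard error 0.30, exact permutation p = 0.114, adjusted p = 0.196), with S7 replicate 4 alone above 0, at 0.35, and replicate 2 still at -1.07.

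**Figure D2:**
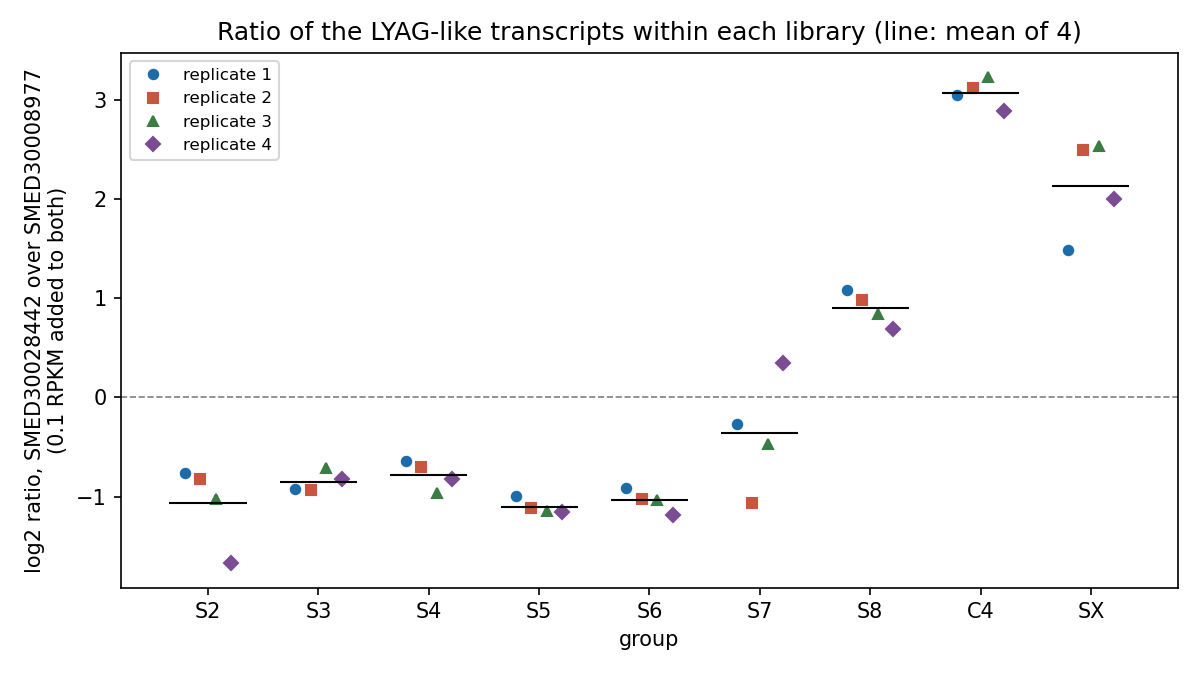
Log2 ratio of LYAG-like SMED30028442 over SMED30008977 in each library, with 0.1 RPKM added to both, by group on the x axis, with a symbol for each replicate and a line at the mean of 4. The means lie between -1.10 and -0.78 from S2 to S6 and reach 0.90 in S8, 3.07 in C4 and 2.13 in SX. Yolk, with 3 and 10 reads in all, is left out.

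In 3 early embryos MPEG1-like-1 and MPEG1-like-2 were above all the other members. S2 replicates 3 and 4 and S3 replicate 3 had 1.66, 1.30 and 1.16 RPKM of VAL-like (SMED30015313), a venom allergen-like marker of the temporary pharynx, against 339 to 612 RPKM in the other 5 libraries of S2 and S3. In the same 3 libraries MPEG1-like-3 was at 2.83, 0.498 and 0.716 RPKM, against 25.2 to 79.7 RPKM in the others. CTSL-like was at 8.64, 1.73 and 2.33 RPKM, against 34.8 to 389 RPKM. MPEG1-like-1 in these 3, at 39.3, 4.51 and 23.3 RPKM, overlapped the range of 15.5 to 93.3 RPKM in the others except in S2 replicate 4. Its level relative to MPEG1-like-3 was thus 13.9, 9.07 and 32.6, against 0.194 to 2.85 in the other 5 libraries and 0.376 to 0.472 in all 4 of S4. By in situ staining the paper found MPEG1-like-1 and MPEG1-like-2, like VAL-like, in no tissue but the temporary pharynx until S6. It also saw MPEG1-like-3, CTSL-like and LYAG-like there from S2 to S4, and in primitive gut cells in S4. In S5 and S6 it found these markers in gut cells filled with yolk, and in S7 their staining was reduced.

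The pharynx marker netrin-like (SMED30023593) was less affected, at 16.2, 7.70 and 6.44 RPKM in these 3 embryos against 13.4 to 49.3 RPKM. gata456a (SMED30007290), a transcription factor that marks gut progenitors in planarians and was highest in yolk at 182 ± 45.3 RPKM, stood at 133, 146 and 138 RPKM in them against 51.2 to 93.8 RPKM. Of the other gut progenitor markers only nkx2.2 and prox-1 were examined. Both were low in all libraries of S2 and S3, so little can be read from them. The paper also detected hnf4 in yolk and early embryos, and it was not examined here. nkx2.2 (SMED30011793) was at 0, 0.413 and 0.124 RPKM against 0 to 1.62 RPKM, and prox-1 (SMED30016901) at 0, 0 and 0.152 RPKM against 0 to 0.936 RPKM. The TMM factors of these 3 embryos were 0.533, 0.399 and 0.392, against 0.559 to 0.925 in the other 5. The part of these differences in the members' levels was not tested. Without these libraries the S2 mean of MPEG1-like-3 became 30.1 RPKM (n = 2) in place of 15.9, the S2 mean of CTSL-like 63.0 in place of 34.1, and the S2 means of SMED30008977 and SMED30028442 63.6 and 36.6 in place of 36.1 and 20.3. For both LYAG-like transcripts this turned the highest mean from S5 (58.4 and 27.0 RPKM) to S2, and their S3 means of 58.8 and 31.3 RPKM (n = 3) were then also above S5. The S2 means of MPEG1-like-1 and MPEG1-like-2 became 53.2 and 37.4 RPKM in place of 37.5 and 28.3. In S3 the means became 55.2 in place of 47.2 for MPEG1-like-1, 39.6 in place of 34.4 for MPEG1-like-2, 45.9 in place of 34.6 for MPEG1-like-3 and 154 in place of 116 RPKM for CTSL-like.

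S3 replicate 4 stood apart in the other direction. It had 389 RPKM of CTSL-like, above all S4 libraries, and 79.7 RPKM of MPEG1-like-3, with the lowest MPEG1-like-1 and MPEG1-like-2 of S3. In S4, replicate 4 was highest for all 6 members and had the largest TMM factor of its stage, 0.870 against 0.424 to 0.599. In yolk, replicates 2 and 4 carried 11.8 and 9.79 RPKM of CTSL-like and 1.74 and 1.55 RPKM of MPEG1-like-3, whereas replicates 1 and 3 had at most 0.891 and 0.205 RPKM. VAL-like was at 19.4 RPKM in yolk replicate 2 and at 1.22 RPKM in replicate 4.

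**Figure D3:**
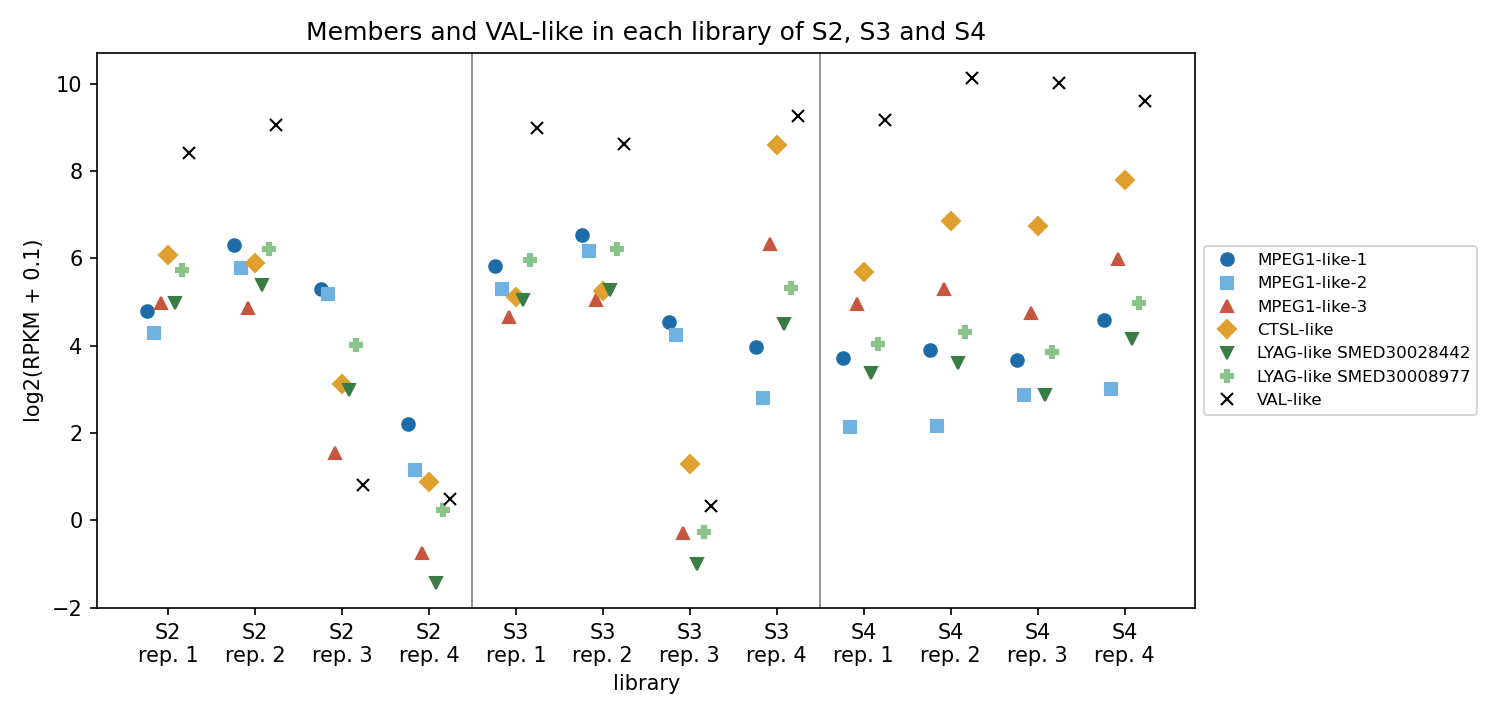
Level of the 6 members and of the pharynx marker VAL-like as log2(RPKM + 0.1) in each library of S2, S3 and S4, with a symbol for each transcript. In S2 replicates 3 and 4 and S3 replicate 3, VAL-like is at 1.66, 1.30 and 1.16 RPKM, and MPEG1-like-1 and MPEG1-like-2 are the highest of the 6 members.

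Between the adult biotypes, whose values were not used to choose the members, 0 of the 6 transcripts were called in the limma fit on log2(RPKM + 0.1) across all 40 samples. Of 33794 transcripts tested, 26.4% were called at an adjusted p under 0.05. No member had an unadjusted p under 0.05 in this fit either, nor was any called by voom on reads rebuilt from the values. The fit takes 1 spread per transcript from all groups, including the variable early embryos, so the absence of calls does not show equal levels. MPEG1-like-1 averaged 0.0173 RPKM in SX and 0.0123 RPKM in C4, and MPEG1-like-2 averaged 0.00910 and 0.0344 RPKM. Both lay under the 0.1 RPKM added to every value, so hardly any call was possible for them. In the limma fit on the 2 adult groups alone, 1 member was higher and 1 lower in SX at an unadjusted p under 0.05. CTSL-like was at 0.655, 0.701, 1.41 and 1.13 RPKM in SX and at 1.70, 1.97, 1.60 and 2.07 RPKM in C4, with no overlap. Its log2 change of -0.90 (SX against C4, standard error 1.18, limma adjusted p = 0.639) passed only when the spread came from the 2 adult groups alone (adjusted p = 0.0222). Limma on the 2 adult groups alone called 43.5% of all transcripts. For LYAG-like SMED30028442 the change was -0.37 (standard error 0.97, limma adjusted p = 0.838), and for SMED30008977 it was 0.58 (standard error 0.98, limma adjusted p = 0.734). MPEG1-like-3 was at 0.113 ± 0.0625 RPKM in C4 and 0.0971 ± 0.0816 in SX (SD, n = 4 each), on 28 and 26 reads. SX libraries were sequenced on an instrument and lane of their own, so biotype and sequencing run cannot be told apart.

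**Figure D4:**
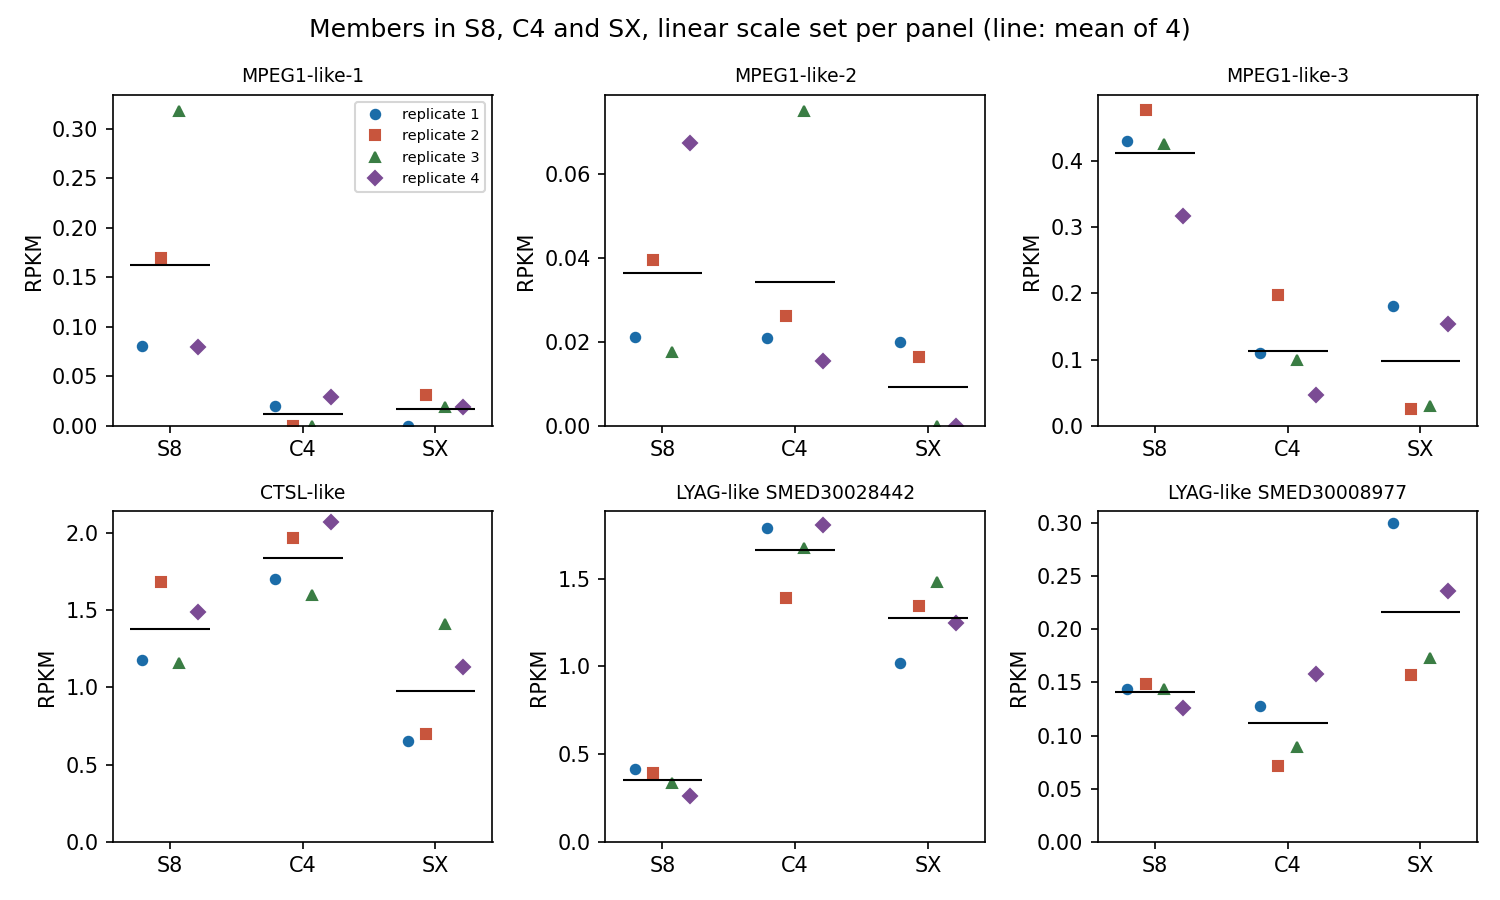
Level in RPKM of the 6 members in hatchlings (S8) and adults (C4, SX) on linear axes that differ between panels, with a symbol for each replicate and a line at the mean of 4. LYAG-like SMED30028442 has both adult groups above every S8 library, with means of 1.67 and 1.27 RPKM against 0.352 RPKM.

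Other transcripts of the same families had their highest mean partly at the members' own stages, S3 and S5, and partly in S8 or adults. Of 8 further transcripts annotated as MPEG1, 3 had their highest group mean in S3 with MPEG1-like-1 and MPEG1-like-2, 2 in S5 with MPEG1-like-3, and 3 in S8 or C4. The study took these transcripts, and the cathepsins and other lysosomal transcripts below, into its lists for enrichment in these embryos, so their directions between stages are no independent evidence. From S4 to S5, 2 of the 8 rose and 3 fell by limma, where 18.5% of all transcripts were called higher and 7.55% lower and the median log2 change of all transcripts was 0.33. SMED30016085 fell from 11.9, 11.5, 9.32 and 23.3 RPKM to 0.162, 0.123, 0.105 and 0.249 RPKM (log2 change -5.70, standard error 0.58, limma adjusted p = 1.53e-08). SMED30011876 was at 0 reads in all 4 S5 libraries, at least 99.4-fold lower than its S4 mean of 3.50 RPKM when set against 3 reads over the group.

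From S5 to S8, 3 of the 8 rose and 2 fell, beside 25.9% of all transcripts higher and 14.1% lower. Those that rose, SMED30019745, SMED30029077 and SMED30035769, reached means of 10.4, 32.9 and 136 RPKM in S8. Their means were 24.1, 130.1 and 95.2 RPKM in C4 and 22.1, 71.4 and 126 RPKM in SX. Those that fell were SMED30032925, from 125 to 0.684 RPKM, and SMED30035691, from 76.1 to 8.07 RPKM. Between SX and C4, 0 of the 8 were called by limma, 1 had an unadjusted p under 0.05, and voom called 1, lower in SX. Over all transcripts limma called 26.4% and voom 41.0%. SMED30011876 was at 0 RPKM in both adult groups and could not be called.

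Both further alpha-glucosidase transcripts also had both adult groups above every S8 library, as LYAG-like SMED30028442 did. The share of all transcripts that separate in this way was not counted. Transcripts of the other lists did so too, such as MPEG1 SMED30029077 and cathepsin L SMED30013826, while MPEG1 SMED30035769 overlapped. The trait was thus not particular to alpha-glucosidases. SMED30008458 averaged 17.1 RPKM in S3, 0.759 in S8, 3.40 ± 0.616 in C4 and 2.39 ± 0.142 in SX (SD, n = 4 each). SMED30036022 averaged 22.7 RPKM in S3, 1.87 in S8, 8.54 ± 1.48 in C4 and 5.36 ± 0.720 in SX. From S4 to S5, 0 of these 2 were called by limma or voom and 0 had an unadjusted p under 0.05 (median log2 change -0.29). Their means went from 9.91 to 13.8 RPKM for SMED30008458 and from 14.0 to 6.43 RPKM for SMED30036022. Both LYAG-like members had higher means in S5 but were not tested there, so calls cannot set them apart from these 2. From S5 to S8, SMED30008458 fell (log2 change -4.03, standard error 0.99, limma adjusted p = 0.00126).

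Of 9 further cathepsin transcripts, 4 rose and 0 fell from S4 to S5, where 18.5% of all transcripts were called higher and 7.55% lower. From S5 to S8, 3 rose and 5 fell, beside 25.9% and 14.1% of all transcripts. Voom also called no cathepsin lower in S5, and 0 had an unadjusted limma p under 0.05 in that direction. The largest rises to S5 were those of the cathepsin L transcripts SMED30035609, from 8.78, 14.7, 25.8 and 57.8 to 353, 627, 987 and 615 RPKM (log2 change 4.84, standard error 0.49, limma adjusted p = 1.31e-08), and SMED30017940, from a mean of 1.70 to 52.2 RPKM. Their C4 means were 1215 and 484 RPKM. The largest falls to S8 were those of cathepsin B SMED30010459, from 422 to 0.262 RPKM (log2 change -10.15, standard error 1.29, limma adjusted p = 7.16e-08), and of cathepsin L SMED30017650, from 469 to 1.98 RPKM. The last is the transcript most like CTSL-like in its course.

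Of 16 other lysosomal transcripts, which include granulins, mucolipins and ribonuclease T2, 10 rose and 0 fell from S4 to S5, against 18.5% higher and 7.55% lower over all transcripts. From S5 to S8, 15 rose and 1 fell, against 25.9% and 14.1%. For the count of 0 lower in S5, 0 had an unadjusted limma p under 0.05 and voom called 0. The falling transcript was ribonuclease T2 SMED30005325, from 50.8 to 0.203 RPKM. The largest rises to S8 were those of alpha-N-acetylgalactosaminidase SMED30003958, from a mean of 0.0106 to 9.33 RPKM, and granulin SMED30003962, from 0.336 to 13.5 RPKM. The median log2 change from S5 to S8 was 2.37 in this list and -5.70 in the cathepsins, beside 0.28 over all transcripts.

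In adults, 2 of these 35 related transcripts were higher in SX and 0 lower, beside 14.8% and 11.6% of all transcripts. In the lower direction 5 had an unadjusted limma p under 0.05, and voom called 6. Over all 33794 transcripts tested, voom called 6791 lower in SX. The share of all transcripts under the unadjusted limit was not counted. SMED30003958 was at 9.39, 7.25, 10.4 and 10.2 RPKM in SX and 0.743, 0.644, 0.532 and 0.455 RPKM in C4 (log2 change 3.77, standard error 0.49, limma adjusted p = 9.72e-08). SMED30010459 was at 0.0634, 9.71, 20.2 and 22.5 RPKM in SX and 0.0330, 0.207, 0.149 and 0.269 RPKM in C4 (log2 change 4.39, standard error 1.29, limma adjusted p = 0.00948). SX replicate 1 overlapped C4, and without SX replicate 4 the adjusted p was 0.0504.

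**Figure D5:**
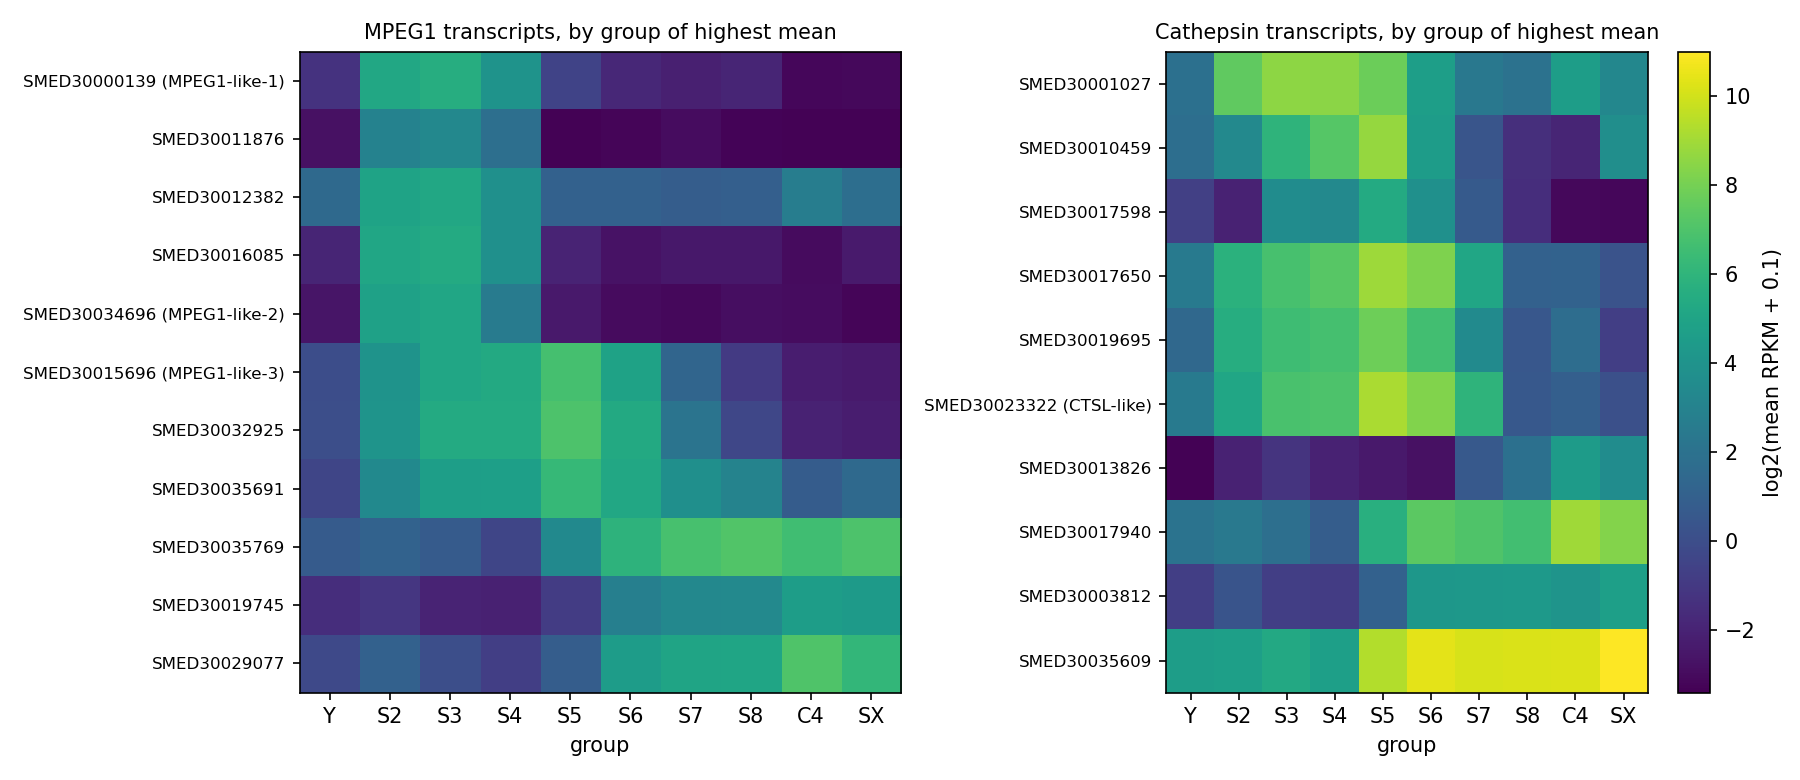
Colour gives log2(mean RPKM + 0.1) over 4 libraries for the 3 MPEG1-like members with 8 further MPEG1 transcripts (left) and CTSL-like with 9 further cathepsins (right), in each group on the x axis. Rows are ordered by the group of the highest mean, from S3 through S5 and S8 to the adults.

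The transcripts most like each member over the 40 samples were often MPEG1, cathepsin L or alpha-glucosidase transcripts, though not always of the member's own family. Likeness was the Pearson correlation of log2(RPKM + 0.1) among 22224 transcripts averaging at least 1 RPKM in a group, and it is given as a description, since samples of a group share their stage. A read could match several transcripts equally well, and the part of shared reads in these correlations was not tested. For MPEG1-like-2 the nearest were the MPEG1 transcripts SMED30016085 (r = 0.986) and SMED30011876 (r = 0.979), followed by SMED30026360 (r = 0.970), which has no annotation here. For MPEG1-like-3 they were the MPEG1 transcript SMED30032925 (r = 0.993) and the cathepsin L transcripts SMED30019695 (r = 0.969) and SMED30017650 (r = 0.968). CTSL-like had the same 3 in another order, led by SMED30017650 (r = 0.980). MPEG1-like-1 was most like a tegument antigen, SMED30035765 (r = 0.979), a troponin I, SMED30020360 (r = 0.978), and the ABC protein SMED30031347 (r = 0.976), all highest in S2 or S3. LYAG-like SMED30028442 was most like the alpha-glucosidase SMED30008458 (r = 0.961) and cathepsin L SMED30001027 (r = 0.924), with its partner SMED30008977 next (r = 0.905). SMED30008977 was most like MPEG1-like-3 (r = 0.947), ahead of SMED30032925 (r = 0.937) and SMED30024001 (r = 0.936). Among the members, MPEG1-like-1 correlated at 0.969 with MPEG1-like-2 but at 0.571 with MPEG1-like-3.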

How the data were processed

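The study made polyA libraries from 500 ng of total RNA (100 ng in S2 and S3), each replicate a separate embryo or animal, and sequenced single 50-base reads. Reads were mapped with Bowtie to a transcriptome, allowing 2 mismatches and several equally good matches, and how shared reads were divided is not given in the sources used here. The authors deposited RPKM values, computed with edgeR after TMM scaling. Processing notes name CASAVA 1.8.2.

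Reads were rebuilt from the values, and 100% came out whole within 0.001 reads. Values were tested as log2(RPKM + 0.1) with limma 3.58.1 (R 4.3.3), 1 coefficient per group, a trended variance and Benjamini-Hochberg adjustment over the 33794 transcripts whose RPKM summed to at least 1 over the 40 samples. On the rebuilt reads voom called 13864 transcripts between SX and C4, against 8905 by limma. Ratios within a library were compared by exact two-sided permutation tests. The fitting was tested on simulated data. A transcript at 0 was set against 3 reads over the group, which covers counting error only.

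The members and lists of related transcripts were chosen with earlier results of these data known. The text names the members, the related transcripts called between adults, the 2 largest called changes in each direction for S5 against S4 and S8 against S5, and the 3 transcripts most like each member. Other named MPEG1, alpha-glucosidase and ribonuclease transcripts were chosen after their values were seen. Insert sequences come from the study's supplementary table, which held the first 399 bases of each. Alternatives were other pseudocounts, filters, scalings and tools, a replicate block, and leaving out each replicate.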

Additional observations from a re-analysis of the deposited data

Results flagged for a closer look

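In each of the 6 transcripts and 10 groups, the lowest and highest of the 4 samples were compared with the rest by Dixon's test. Of the 60 groups examined, 3 held a sample far from the others, and chance alone flags about 1 in 20 groups, here 3. LYAG-like SMED30028442 in S3 was lowest in replicate 3, at 0.405 RPKM. LYAG-like SMED30008977 was lowest in the same embryo, at 0.728 RPKM. This embryo is 1 of the 3 with little VAL-like. MPEG1-like-2 in yolk was highest in replicate 2, at 0.257 RPKM, which is 1 read against 0 in the other libraries.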

How the results depend on the processing

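Between SX and C4 the call on the members changed in the fit on the 2 adult groups alone, with 1 member called in place of 0. It was CTSL-like, at -0.90 and an adjusted p of 0.0222 by limma, over a range of 0.0222 to 0.768 across its alternatives. The 2 related transcripts called became 8 with a pseudocount of 1 RPKM, 8 with quantile normalization, 11 with voom, 16 in the fit on 2 groups, and 4 without the 3 early libraries, an alternative chosen after seeing the data. Of these, 5 were higher in SX with voom and 4 in the fit on 2 groups, and 6, 5, 6, 12 and 2 were lower in the same order of settings. The share of all transcripts called also rose, from 26.4% to 34.0%, 34.1%, 41.0%, 43.5% and 29.3% in that order. The added calls are therefore not particular to the related transcripts or to CTSL-like. Leaving out 1 adult at a time gave 1 to 2 calls, 1 to 2 of them higher, and the lost call was cathepsin B SMED30010459 without SX replicate 4 (log2 change 3.69, limma adjusted p = 0.0504). The uncalled change of MPEG1-like-1 became -0.10 under quantile normalization, and that of MPEG1-like-3 ranged from -0.37 to 0.021 when 1 replicate was left out. With a pseudocount of 1 RPKM the LYAG-like ratio of S4 against S3 became -0.0050 and the MPEG1-like ratio of S5 against S4 0.74. The LYAG-like ratio of S3 against S2 was -0.10 without the early libraries. The causes were not tested. Over all transcripts, the calls between SX and C4 numbered 14714 in the fit on 2 groups and 13864 with voom, against 8905, and those between S5 and S4 4557 in the fit on 2 groups, against 8803. The share of calls that were higher was 56.1% between SX and C4, and 34.7% with quantile normalization. In S5 against S4 it was 71.0%, but 94.1% by total reads, 54.4% with quantile normalization and 55.0% with voom. In S8 against S5 it was 64.8%, but 92.4%, 45.6% and 53.3% under these settings. The median log2 change of all transcripts was 0.73 by total reads and -0.07 with quantile normalization in S5 against S4, and 1.07 and -0.16 in S8 against S5.

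The methods pooled 1 replicate of each embryonic stage, yolk and C4 per sequencing lane, but the labels do not say that a replicate number marks a lane. Deviations of same-numbered samples correlated between -0.05 and 0.08, so the numbers were not taken to pair the samples, and an effect of the lane was not tested. With a replicate block the counts of related transcripts called stayed at 2, 19 and 30 for SX against C4, S5 against S4 and S8 against S5, and 0 members were called. Over all transcripts the calls with the block numbered 8826, 8754 and 13471 in the same order, against 8905, 8803 and 13514 without it. For the ratios, 4 pairs cannot give an exact p below 0.125. Only in 2 of 12 cases did a sample correlate best with its own number. At the depth of yolk, where 1 read per kilobase is worth 0.360 RPKM, members at 0 to 3 reads are not distinguishable.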
